A study of Homo sapiens with 17 samples.

Results

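RNF219, also called OBI1, is a RING finger protein, a class of protein that often acts in ubiquitin transfer. The RNF219 eCLIP library gave 24624 of the 389788 peaks deposited for 11 eCLIP libraries in the study, and all 24624 were taken as members, with no selection by value. eCLIP crosslinks RNA to bound proteins with ultraviolet light, recovers a chosen protein by immunoprecipitation and sequences the attached fragments. The cells were 293T, a human embryonic kidney line, and received 400 mJ per square cm at 254 nm before lysis and RNase I treatment. The RNF219 eCLIP library (1 sample) was set against its size-matched input (1 sample), RNA from the same gel window, up to 75 kDa above the protein, taken without immunoprecipitation. The other 10 libraries, 2 each for AIFM1, NUMA1, RANGAP1, VIM and ZNF184, came from the same line and treatment, each protein with its own input. RNF219 had 1 library, so no value below has a replicate check, and intervals cover counting error only.

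Human mitochondria make 2 rRNAs, 22 tRNAs and 13 mRNAs from long transcripts of both strands, and the tRNAs lie between the other genes and are cut out of these transcripts. RNR1 is the RNA of the small subunit of the mitochondrial ribosome and RNR2 that of the large subunit. Mitochondrial peaks were given a gene by position. Nuclear peaks are given by their hg19 position and strand alone, because no gene annotation of that build was used here.

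For each peak the authors gave a log2 fold over input and a -log10 p. A peak is called significant below at a log2 fold of at least 3 and a -log10 p of at least 3. This held for 228 of 24624 RNF219 peaks, 0.926% of those tested. They made up 182 separate sites once touching peaks were joined. Numbers of reads were recovered from the folds and p-values. Where p had saturated, or was 0, only the least whole numbers are known, and these are written "at least". The fewest reads that passed beside 1 input read were 18. The last peak inside the threshold had a log2 fold of 3.00440, and the nearest outside it, with a sufficient p, had 2.99879. The median log2 fold of all RNF219 peaks was 1.07, and 5329 (21.6%) were below input. This median equals the fold of the commonest pair of reads, 3 eCLIP reads beside 1 input read, found at 5869 peaks. It thus lies at the least input that can be seen. The input had 0.701 times as many reads as the eCLIP library, and the totals themselves are unknown.

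Mitochondrial RNA held 53 of the 228 significant peaks (23.2%) but 179 of the 24624 deposited ones (0.727%). Among tRNA peaks 14 of 16 were significant (87.5%, 95% Wilson interval 64.0 to 96.5). Among rRNA peaks it was 26 of 88 (29.5%, 21.0 to 39.8), and among mRNA peaks 13 of 75 (17.3%, 10.4 to 27.4). Among nuclear peaks it was 175 of 24445 (0.716%, 0.618 to 0.83). Neighbouring peaks of 1 site share reads, so these intervals are too narrow where sites were cut into pieces.

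The tRNAs gave the highest folds. TRNP, the proline tRNA, on the minus strand (15959 to 15989), had a log2 fold of 9.03 from at least 748 eCLIP reads beside at least 1 input read. TRNG, for glycine (10009 to 10050), had 8.45 from at least 999 eCLIP reads beside at least 2 input reads. TRNF, for phenylalanine (597 to 634), had 7.62 from at least 563 beside at least 2. These were the 3 highest folds among all significant RNF219 peaks.

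Further tRNA peaks were significant at lower folds. TRNH, for histidine, had a pair of abutting peaks at 7.03 and 6.87. TRNI, for isoleucine, had 1 peak at 6.39, and TRNM, for methionine, had 4 between 5.22 and 6.27. TRNY, for tyrosine and on the minus strand, had 5.64, TRNT, for threonine, 4.51, and both TRNV peaks, for valine, 3.66. The remaining peaks, not significant, were TRNL2 for leucine at 2.04 and TRNS2 for serine at -0.09, with at least 95 eCLIP reads beside at least 71 input reads. Thus 11 of 22 tRNAs had a deposited peak and 9 had a significant one. TRNH and TRNS2 are neighbours on the mitochondrial chromosome, the one far above input and the other at about its level.

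The rRNAs split between the genes. All 30 RNR1 peaks were above input, with log2 folds of 2.04 to 7.41, and 23 were significant. Of 58 RNR2 peaks, 48 were below input, and the lowest was at -3.04. The highest RNR1 peak (1542 to 1567) had at least 1943 eCLIP reads beside at least 8 input reads, a log2 fold of 7.41. Its 95% exact counting interval, 6.43 to 8.63, takes these least numbers as the reads, and larger numbers would narrow it. A second RNR1 stretch (922 to 1013) held 8 peaks between 4.12 and 7.05, all significant.

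In RNR2 the 5′ stretch 1710 to 1781 lay between -1.88 and -1.19, and 1827 to 1925 between -3.04 and -0.53. A single peak at 2161 to 2171 was above input, at 0.77. The stretch 2245 to 2448 lay closer to input, between -1.18 and -0.03. Peaks at 2526 to 2567 were at 1.92 to 2.96, and those at 3076 to 3088 at 2.16 to 2.22. The last stretch (3185 to 3230) held the only 3 significant RNR2 peaks, at 5.22 to 6.98, with at least 11019 eCLIP reads beside at least 61 input reads at the highest. The high folds of RNR2 were thus at its 3′ end.

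**Figure D1:**
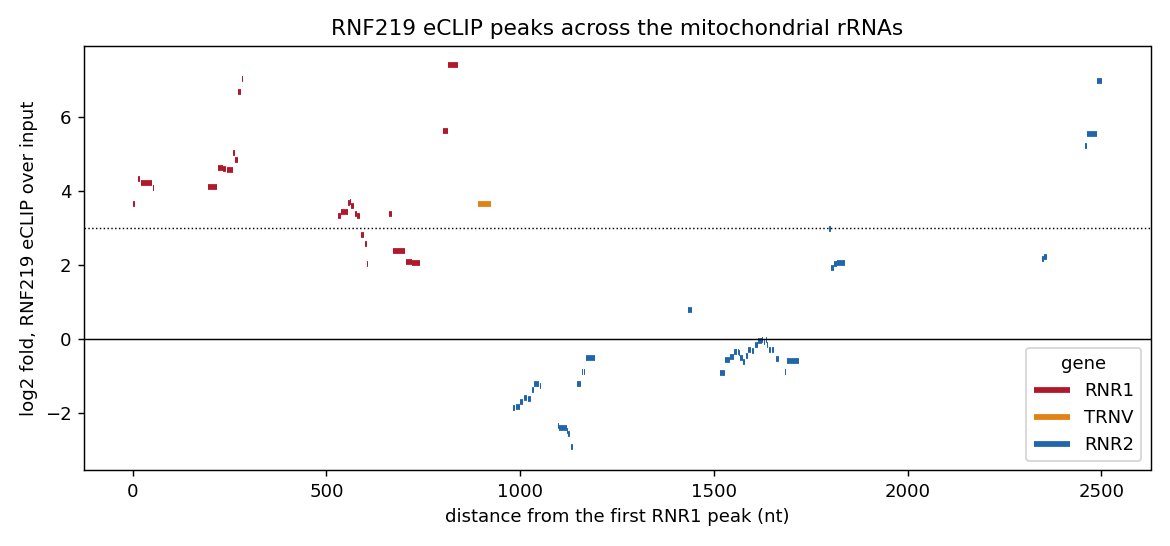
Log2 fold of RNF219 eCLIP over its input (vertical axis) for each peak in RNR1, TRNV and RNR2 (bars span the peak), against distance in nt from the first RNR1 peak. The solid line is input level and the dotted line is the log2 fold of 3 used for significance. RNR1 peaks lie at 2.04 to 7.41, and 48 of 58 RNR2 peaks lie below 0.

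All 13 mitochondrial mRNAs had deposited peaks and 9 had a significant one, with 69 of 75 peaks above input. The highest was in COX1, a subunit of cytochrome c oxidase, at 5.68 (6678 to 6719) from 73 eCLIP reads beside 1 input read (95% exact counting interval 3.15 to 11). A second COX1 peak (7317 to 7350) was at 5.27. The highest peaks of ND4L, ATP6 and ND5 were significant at 4.74, 3.99 and 3.64. Significant peaks nearer the threshold lay in COX3 (3.47), ATP8 (3.31 and 3.09), COX2 (3.19), ND4 (3.07) and CYTB (3.02), whose products, like those above, are subunits of the respiratory chain or ATP synthase. ND1, ND2, ND3 and ND6 had none. No mRNA peak with at least 10 input reads was significant, 0 of 48 (95% Wilson interval 0 to 7.41%). Over all RNF219 peaks with at least 10 input reads, 43 of 1857 were significant (2.32%). The mRNA calls therefore rest on peaks with few input reads.

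The same measures were set beside the other 10 libraries, whose folds are over their own inputs. To limit the effect of few input reads, peaks with at least 10 input reads were used, counting least numbers where reads were not settled. The difference of medians, mitochondrial minus nuclear log2 fold, was 1.69 in RNF219, against -0.54 ± 0.71 in the others (SD, n = 10, range -1.65 to 0.59). The exact permutation p was 0.0909 (2-sided, 1 library against 10), the smallest that 11 choices allow, so no comparison here can pass 0.05. The 2 libraries of a protein share an input and are not independent, so this p is too small. With their values averaged, which leaves 6 proteins, the exact permutation p was 0.167, the smallest that 6 choices allow. The exact permutation p over 11 libraries, adjusted over 5 comparisons by Benjamini-Hochberg, was 0.152. The p over 6 proteins was not adjusted.

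By class, the tRNA difference was 6.79 in RNF219, from 7 peaks, against 1.32 ± 1.42 (SD, n = 10, range -0.70 to 3.66). The mRNA difference was 2.07 in RNF219, against -0.53 ± 0.76 (SD, n = 10, range -1.36 to 0.90). Both were the highest of the 11 libraries, with an exact permutation p of 0.0909 each (adjusted 0.152), or 0.167 over 6 proteins. The rRNA difference was 0.51 in RNF219, against -0.68 ± 1.04 (SD, n = 10, range -2.35 to 0.97), with an exact permutation p of 0.364 (adjusted 0.364). RNF219 was the second highest of the 11. Both RNF219 medians behind it were below input, -0.16 for rRNA and -0.66 for nuclear peaks. The rRNA difference depended on the setting. It was -1.17 in RNF219 with no minimum of input reads (exact permutation p of 0.545). With the mean in place of the median it was 1.66 (exact permutation p of 0.0909). With no minimum, the RNF219 value was also lower for all mitochondrial peaks, at 0.97, for tRNA, at 5.06, and for mRNA, at 1.07. Each of these had an exact permutation p of 0.0909.

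The split between the rRNAs was not particular to RNF219. RNR1 minus RNR2 was 4.18 in RNF219, against 4.0 and 4.98 in AIFM1 replicates 1 and 2, 1.45 and 3.34 in ZNF184, and -0.67 to 0.69 in the other 6 libraries (exact permutation p of 0.182, and 0.5 over 6 proteins). AIFM1 is a flavoprotein of mitochondria. ZNF184 replicate 2 had only 3 RNR2 peaks with enough input reads.

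**Figure D2:**
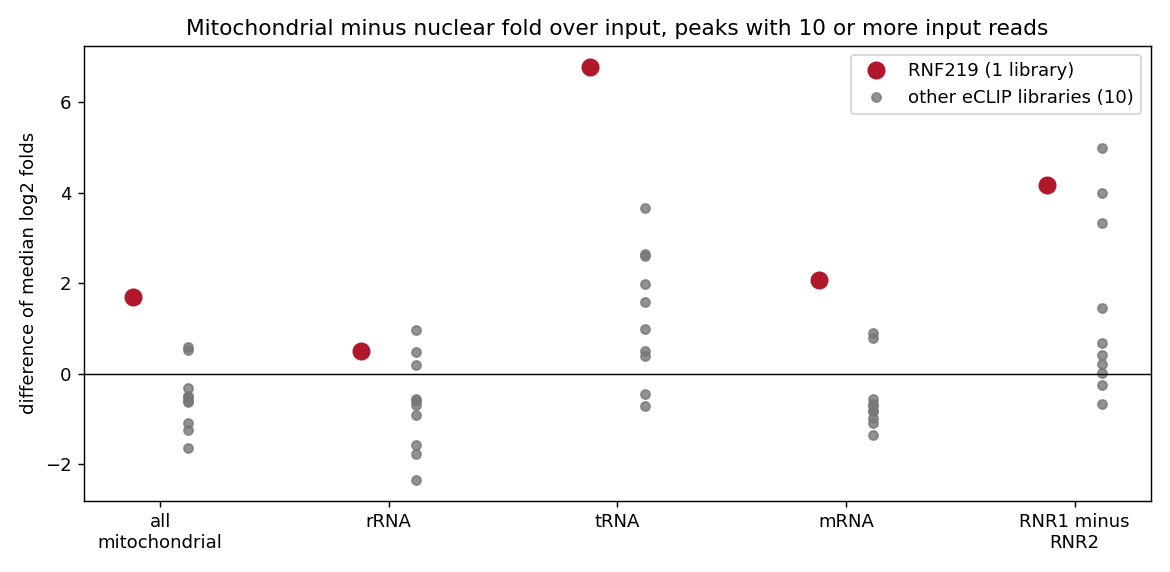
Difference of median log2 folds over input (vertical axis) between mitochondrial and nuclear peaks, for all mitochondrial peaks and by class, and between RNR1 and RNR2, from peaks with 10 or more input reads. The large points are the RNF219 library and the small points the other 10 libraries. RNF219 is highest for all mitochondrial peaks (1.69), tRNA (6.79) and mRNA (2.07), and second for rRNA and for RNR1 minus RNR2.

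Over all deposited peaks the significant share was 1.51% and 0.877% in NUMA1, 1.52% and 2.99% in RANGAP1, 5.29% and 4.5% in VIM, 3.15% and 4.82% in ZNF184, and 0.216% and 0.214% in AIFM1, beside the 0.926% of RNF219. Of mitochondrial peaks alone it was 29.6% in RNF219 and 0% to 13.7% in the other 10 libraries. For tRNA peaks it was 87.5% in RNF219, and the next highest were 55.6% in VIM replicate 2 and 53.8% in ZNF184 replicate 2. For rRNA peaks it was 29.5% in RNF219, against 22.7% in AIFM1 replicate 2 and 3.33% in AIFM1 replicate 1, with 0% in the other 8 libraries. For mRNA peaks it was 17.3% in RNF219 and 4.92% in AIFM1 replicate 2, with 0% in the other 9 libraries. The exact permutation p was 0.0909 for each of these 4 shares, before and after Benjamini-Hochberg adjustment over them, and 0.167 over 6 proteins. Relative to the eCLIP library, the input was shallowest in AIFM1 replicate 2 (0.534 times) and RNF219 (0.701 times), and the part of depth in these shares was not tested.

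**Figure D3:**
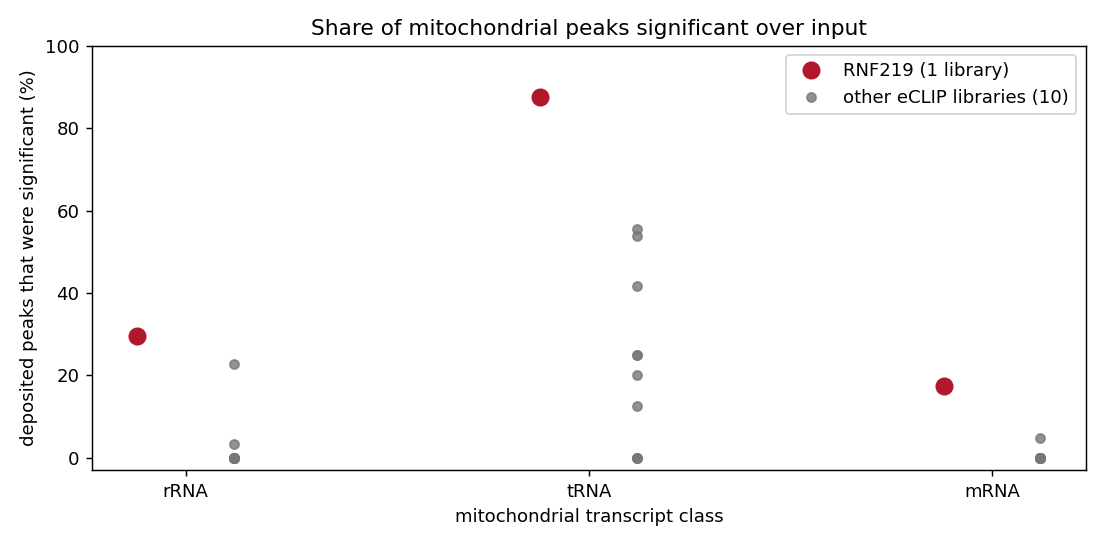
Share of deposited mitochondrial peaks that were significant over input, in percent (vertical axis), by transcript class. The large points are RNF219 and the small points the other 10 libraries. RNF219 is at 29.5% (rRNA), 87.5% (tRNA) and 17.3% (mRNA), above the other libraries in each class.

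Off the mitochondrial chromosome, the 175 significant peaks fell into 73 loci when peaks of 1 strand within 10000 nt were joined, and 41 of these held 1 peak. The 14 loci with at least 3 peaks held 98 of the 175 (56.0%). Chromosome X held 54 of the 175, which was 5.11% of its 1057 deposited peaks, against 0.716% over all nuclear peaks. Most of the 54 lay in the chromosome X loci described below, which held 16, 16 and 14 significant peaks.

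The largest loci were a pair on the minus strand of chromosome X. In the more 3′ one (73041127 to 73046257), 16 of 42 peaks were significant, and folds ran from -1.04 to 5.10, with a median of 2.41. Its highest peak had at least 49 eCLIP reads beside at least 1 input read. The other 10 libraries had deposited peaks in the same span but none significant, and their medians ran from -0.82 in RANGAP1 replicate 2 to 1.38 in ZNF184 replicate 2. In the more 5′ one (73063840 to 73069482), 16 of 77 peaks were significant, with a median of 1.67. The highest fold there was 4.76, from at least 155 eCLIP reads beside at least 4 input reads. No other library had a significant peak in that span either, and their medians ran from -1.48 to 0.68. The spans were set by the significant RNF219 peaks, so these values describe the loci and do not test them.

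**Figure D4:**
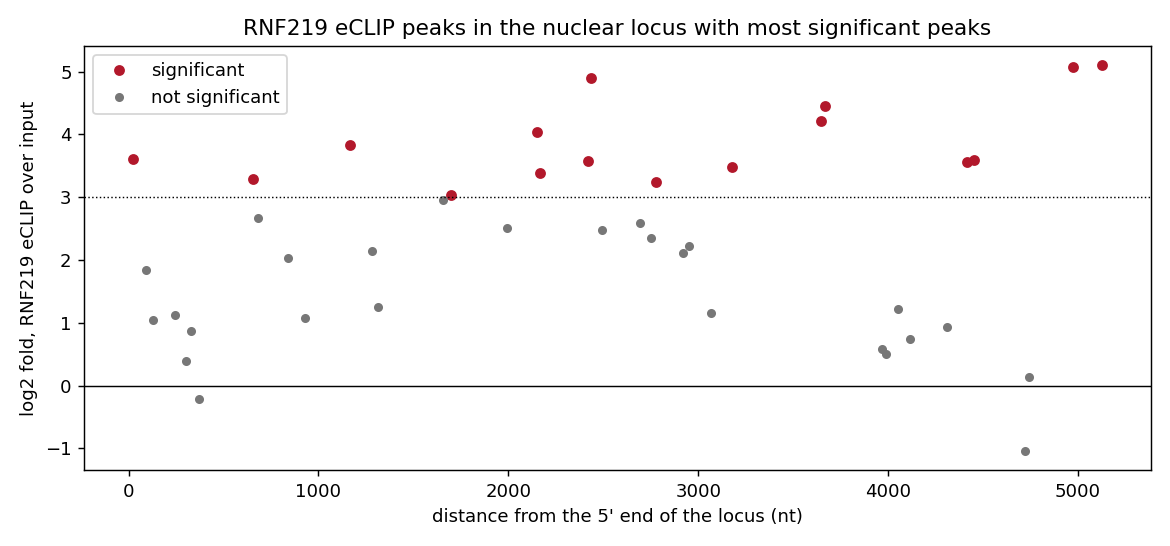
Log2 fold of RNF219 eCLIP over its input (vertical axis) for the 42 peaks of the more 3′ chromosome X locus, against distance in nt from the 5′ end of the locus. Coloured points are the 16 significant peaks, grey points the others, and the dotted line is a log2 fold of 3. Significant and other peaks alternate along the 5131 nt, with 2 peaks below input.

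A further locus on the minus strand of chromosome X (107963265 to 107977147) had 14 of 29 peaks significant and none below input, with a highest fold of 4.74, and 2 other libraries had 3 significant peaks there between them. On chromosome 22 (38880913 to 38886774, minus strand), 12 of 32 were significant, with a highest fold of 4.77, and no other library had a significant peak there. Loci of 6 significant peaks each lay on chromosome 7 (26231495 to 26237311, minus strand) and chromosome 12 (54674572 to 54678644, plus strand), again with none in the other libraries. That was the usual case, since 52 of the 73 loci had no significant peak in another library. Some smaller loci did. On chromosome 1 (173833506 to 173835490, minus strand), 2 other libraries had 9 significant peaks beside 5 of RNF219. On chromosome 9 (136216297 to 136217773, plus strand), 2 had 7 beside 3. No locus of any size, also of 1 peak, had a significant peak on the opposite strand. Only 0.716% of all nuclear peaks were significant, so this does not test a preference for strand.

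The highest nuclear fold was 5.72, on chromosome 11 (65270402 to 65270436, plus strand), from at least 75 eCLIP reads beside at least 1 input read. Next were 5.51 on chromosome 17 (27047624 to 27047635, plus strand), 5.30 on chromosome 17 (79477427 to 79477515, minus strand; 56 eCLIP reads beside 1) and 5.27 on chromosome 3 (52725444 to 52725462, plus strand; 55 beside 1). The highest nuclear fold was thus below that of 6 mitochondrial tRNAs.

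Of the 228 significant peaks, 57 (25.0%) overlapped a significant peak of another library by at least 1 nt on the same strand, 24 of them mitochondrial and 33 nuclear. ZNF184 replicate 2 shared most, 35 of 228 (15.4%), and 39 of its 2592 significant peaks (1.5%) were the counterpart. AIFM1 replicate 2 shared 17 (7.46% of the RNF219 peaks), 16 of them mitochondrial, and 13 of its 68 (19.1%) were the counterpart. At 189 of the 228 peaks some other library had a deposited peak. The same shares over all RNF219 peaks are not given here. These counts therefore do not show whether significant peaks overlapped more or less than RNF219 peaks in general.

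At the other end, 104 RNF219 peaks (0.422%) had log2 folds of -3 or lower, 103 of them nuclear and 1 in RNR2. They had a median of at least 184 input reads. The lowest was at -6.46 on chromosome 12 (120730914 to 120730949, minus strand), from at least 13 eCLIP reads beside at least 803 input reads. The next were at -6.39 on chromosome 14 (50329294 to 50329357, minus strand) and -5.84 on chromosome 3 (181540760 to 181540763, minus strand). The 103 nuclear peaks lay in 78 loci, and none of these held a significant RNF219 peak. The spans were set by the peaks below input alone, and many held a single peak. The absence of significant peaks within them is therefore no test of separate loci. Among them, a peak at -3.32 on chromosome X (73050994 to 73051028, minus strand) lay between the pair of largest loci of significant peaks.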

How the data were processed

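RNA bound by RNF219 in 293T cells was compared with its size-matched input. The build was hg19, and STAR, cutadapt, SAMtools, Picard and GATK are listed without versions, per the submitters' processing notes. No source used here gives the peak caller or says whether duplicates were removed. The authors deposited 1 peak list per eCLIP library, with a -log10 p and a log2 fold over input for each peak. Read numbers were recovered here as whole-number ratios that fit the deposited folds, and settled by the p-values. In a simulated library of 3000 peaks, 99.3% of 2160 settled pairs were right. The simulated p-values were made with a formula that the recovery itself uses. That share therefore checks the code, and not whether the authors' p-values follow the formula. An input of 0 reads cannot be told from 1. Where only least numbers are known, peaks can miss the minimum of 10 input reads.

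Mitochondrial genes came from the RefSeq table of GRCh38.p14 by largest overlap on the gene's strand, with strands from general knowledge. The mitochondrial reference of the files is unstated. Moving the genes by up to 2 nt reassigned 0 of 179 peaks. Significant nuclear peaks on 1 strand were joined into loci across gaps of up to 10000 nt, a distance chosen after the values were seen. Nuclear peaks carry positions only, as set at the start for the case of no hg19 annotation. The gene lists and cell markers fixed there were therefore not evaluated for the nucleus, and no sequence is printed. Genes named are all mitochondrial genes with a significant peak and some with none. The members, classes and thresholds were chosen with earlier results of these data known. Medians were compared over libraries by exact permutation tests, and over proteins as an alternative added after seeing the data. Python 3 tools were used: pandas, SciPy, statsmodels.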

Additional observations from a re-analysis of the deposited data

Results flagged for a closer look

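The values here differ in sign between the RNF219 library and both libraries of another protein; the differences were not tested protein by protein. For mitochondrial minus nuclear folds, RNF219 was at 1.69, against -0.31 and -0.52 in NUMA1, -1.09 and -1.65 in RANGAP1, -1.23 and -0.60 in VIM, and -0.62 and -0.50 in ZNF184. For rRNA, RNF219 was at 0.51, against -0.56 and -0.59 in AIFM1, -1.78 and -2.35 in RANGAP1, and -1.58 and -0.92 in VIM. This sign rests on the minimum of 10 input reads, since RNF219 was at -1.17 with no minimum. For tRNA, RNF219 was at 6.79, against -0.44 and -0.70 in RANGAP1. For mRNA, RNF219 was at 2.07, against -0.82 and -0.83 in NUMA1, -0.97 and -1.36 in RANGAP1, -1.10 and -0.56 in VIM, and -0.68 and -0.71 in ZNF184. For RNR1 minus RNR2, RNF219 was at 4.18, against -0.25 and -0.67 in RANGAP1. Each input was used for all libraries of its protein, so the 2 values of a protein share it.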

How the results depend on the processing

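The count of 228 significant peaks was 439 at a log2 fold of at least 2 and 89 at 4. The rRNA share (29.5%) was 43.2% and 18.2% at these settings and 43.8% over merged sites. The mRNA share (17.3%) was 50.7% and 4.0%, and 0% with at least 10 input reads. The nuclear share (0.716%) was 1.42% and 0.237%, and 0.454% at a -log10 p of at least 5. With a log2 fold of at least 2 in the other library, 31.6% of significant peaks were shared in place of 25.0%. At a log2 fold of -2 or lower, 335 peaks were below input in place of 104. The tRNA share stayed within its interval under the alternatives run, between 75.0% and 93.8%. RNF219 minus the mean of the others was above 0 in all alternatives run, but its size moved. Across input minimums of 0, 5 and 20 reads and the mean in place of the median, it was 1.76 to 3.16 for mitochondrial folds, 1.17 to 2.22 for rRNA, 4.67 to 5.95 for tRNA, 2.07 to 3.25 for mRNA and 2.50 to 2.78 for RNR1 minus RNR2. With no minimum, the RNF219 value itself was 0.97 in place of 1.69 (mitochondrial) and 5.06 in place of 6.79 (tRNA). It was 1.07 in place of 2.07 for mRNA and -1.17 in place of 0.51 for rRNA. From no minimum to at least 10 input reads, the RNF219 nuclear median went from 1.07 to -0.66. The rRNA median went from -0.09 to -0.16 and the mRNA median from 2.14 to 1.40. What lay behind these shifts was not tested. With 1 other library left out it was 2.11 to 2.36 for mitochondrial folds, 1.0 to 1.37 for rRNA, 5.24 to 5.73 for tRNA, 2.51 to 2.76 for mRNA and 2.53 to 3.16 for RNR1 minus RNR2, a contrast chosen after seeing the data. For shares it was 25.3 to 26.8 percentage points for all mitochondrial peaks, 26.6 to 29.2 for rRNA, 61.5 to 67.7 for tRNA and 16.8 to 17.3 for mRNA. At log2 folds of at least 4 and at least 2 these differences were 15.9 and 42.3 for all mitochondrial peaks, 17.3 and 36.2 for rRNA, 66.2 and 56.1 for tRNA, and 4.0 and 47.4 for mRNA. The order of annotation classes was not run, since no hg19 annotation was used. No paired analysis was possible because RNF219 has 1 library. Few input reads limit single peaks: 66 of 180 settled significant peaks (36.7%) had 1 input read.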
